A study of Mus musculus with 18 samples.

Results

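Slfn1, Ms4a4c, Apol9b, Mndal and Ifitm1 are 5 mouse genes that interferons switch on and that lie outside the Gbp, IRG and Ly6 families. They were taken by symbol from the 6 gene lists that the authors deposited, and they hold 8 of the 1023 rows, or 5 of the 816 distinct symbols. Earlier results of these data were known when the genes were chosen, so the values below describe them, and no test was made on them.

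The study measured RNA in macrophages grown from mouse bone marrow, in 18 libraries that form 6 groups of 3. Knockout cells (EED KO) came from mice with both Eed alleles flanked by loxP sites and 1 copy of LysM-Cre (Eedfl/fl; LysM-Cre+/-), which removes Eed in myeloid cells. Control cells (WT) came from littermates, and the labels do not say whether those carried the Cre. Each genotype was unstimulated, LPS primed (Salmonella lipopolysaccharide, 100 ng/ml for 24 h) or LPS tolerant (the same priming, 48 h of rest and a further 10 ng/ml of LPS). The sources used here do not give the length of the second LPS exposure or the age and sex of the mice. Replicate numbers are not tied to separate animals, and the p-values then reflect only how these libraries vary, which may be technical. Of the 18 libraries, 17 carry a label that assigns them to a comparison, and replicate 1 of the WT LPS primed group does not.

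EED belongs to the core of Polycomb repressive complex 2 and helps it to place the repressive methyl mark on lysine 27 of histone H3. Macrophages that sense LPS through TLR4 make interferon beta by way of the adaptor TRIF. Secreted interferon then acts back on the cells through its receptors, and interferon-stimulated response elements (ISRE) in the promoters of its target genes take part in their induction. Macrophages in LPS tolerance give a muted inflammatory response to a repeated dose, while some antiviral and antimicrobial genes stay inducible.

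The deposited rows give a log fold change of EED KO against WT, an unadjusted p and an adjusted p, without levels or counts per library. Values per sample, their overlap between groups and the sequencing depth are therefore not analysed here. The log base was taken as 2, and the direction was read from Eed, which the authors' deposited table places among the lower genes, at -3.04 without stimulation, -3.59 after priming and -3.87 in tolerance. Listed rows have absolute log2 fold changes of 0.75 or more and unadjusted p of 0.0498 or less. A gene that is not listed in a state may have missed either limit, or may not have been measured, and cannot be read as unchanged. Rows may also cover less than a whole gene, as the processing section explains. The rows of 1 gene in 2 states may then cover different parts of it. Some symbols also hold identical values, such as many protocadherin gamma genes in tolerant cells. Shares and medians over all listed rows may thus count some measurements more than once. "Rose" and "fell" are used here only for rows with an adjusted p under 0.05. The files have no column of standard errors, and the approximate ones given here were worked back from each fold change and its unadjusted p. For a difference between 2 states, the 2 errors were combined as if the states were independent, which could not be checked.

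Promoter sequences are shown for the 3 genes that were listed in 2 states, because the ISRE is an element through which interferon acts on such genes. They are the 250 bases before the transcription start, 5′ to 3′ on the gene's strand, from RefSeq on the GRCm38.p6 build, which is older than the GRCm39 build that the submitters' processing notes name. Capitals mark matches to GAAANNGAAA, the core of an ISRE, or to its reverse complement TTTCNNTTTC.
Apol9b, chr15:77728822-77729071, plus strand: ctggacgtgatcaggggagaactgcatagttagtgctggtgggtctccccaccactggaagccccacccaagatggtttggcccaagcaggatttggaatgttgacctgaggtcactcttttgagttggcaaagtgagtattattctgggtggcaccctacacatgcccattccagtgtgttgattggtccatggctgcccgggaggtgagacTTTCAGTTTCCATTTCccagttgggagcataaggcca
Mndal, chr1:173880188-173880437, minus strand: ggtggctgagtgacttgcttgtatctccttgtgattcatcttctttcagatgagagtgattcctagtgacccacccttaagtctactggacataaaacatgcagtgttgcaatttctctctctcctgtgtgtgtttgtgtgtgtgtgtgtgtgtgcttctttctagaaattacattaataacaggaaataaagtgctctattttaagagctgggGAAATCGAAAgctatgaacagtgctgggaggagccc
Ifitm1, chr7:140967826-140968075, plus strand: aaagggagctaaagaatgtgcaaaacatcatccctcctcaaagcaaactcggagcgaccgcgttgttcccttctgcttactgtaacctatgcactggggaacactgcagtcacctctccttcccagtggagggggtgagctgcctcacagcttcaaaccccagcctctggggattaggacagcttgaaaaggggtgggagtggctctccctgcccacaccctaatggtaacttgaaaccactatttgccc

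Apol9b and Mndal each have 2 annotated starts in RefSeq, and the sequences shown are those of the start that the table gives first. Apol9b held 2 overlapping matches, at 37 to 28 and 31 to 22 bases before that start, and they lie at 86 to 77 and 80 to 71 bases before the other. Mndal held 1 match at 36 to 27 bases before the start shown and another at 54 to 45 bases before its other start. No match lies in the windows of Ifitm1, Slfn1 or Ms4a4c, which says only that these letters are absent there. The RefSeq starts of Mndal, Ifitm1 and Ms4a4c lie inside the GENCODE spans given below, and the outer starts of those spans were not searched. So 2 of the 5 genes (40.0%) had the motif in a window running from 250 bases before to 50 bases after a start, against 1079 of the 27025 genes with such a window (3.99%). Of 72 other interferon-stimulated genes with a window, from a wider list used below, 24 (33.3%) had it. The 5 genes were chosen as interferon-stimulated, so their share is not particular to them.

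**Figure D1:**
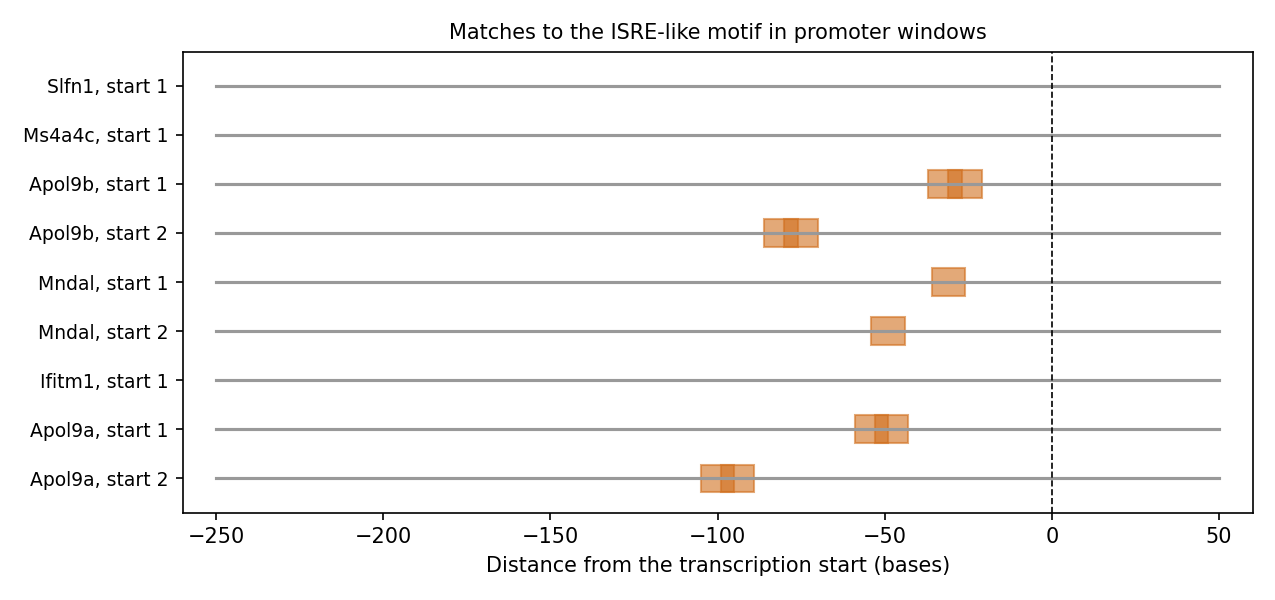
Matches to the ISRE-like motif on either strand (orange boxes, darker where 2 overlap) in RefSeq promoter windows of the 5 genes and of the near-copy Apol9a; the x axis is the distance from the transcription start in bases, and each grey line is 1 annotated start. Apol9b, Mndal and Apol9a carry matches within 105 bases before a start, and Slfn1, Ms4a4c and Ifitm1 carry none.

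Across the 3 states the 5 genes did not keep 1 direction. In unstimulated cells 3 were listed (Slfn1, Ms4a4c and Apol9b), all lower in EED KO, where 23.3% of the 227 listed rows were lower. In LPS primed cells 3 were listed (Apol9b, Mndal and Ifitm1), all higher in EED KO, where 79.8% of the 377 listed rows were higher. In LPS tolerant cells Ifitm1 was listed as higher and Mndal as lower, where 82.1% of the 419 listed rows were higher and 17.9% lower. None of the 3 genes listed in unstimulated cells passed an adjusted p of 0.05 in the authors' edgeR table, although all 3 had an unadjusted p under 0.05, against 19.4% of all listed rows in that state. In primed cells 1 of 3 passed (Mndal), against 33.2% of listed rows, and in tolerant cells 1 of 2 passed (Ifitm1), against 23.6%. A log2 fold change of at least 1 in size was reached by 2, 3 and 1 of the listed genes in the same order of states, against 59.9%, 54.4% and 39.9% of all listed rows. The genes were chosen from these same comparisons, so these shares are printed for scale only.

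**Figure D2:**
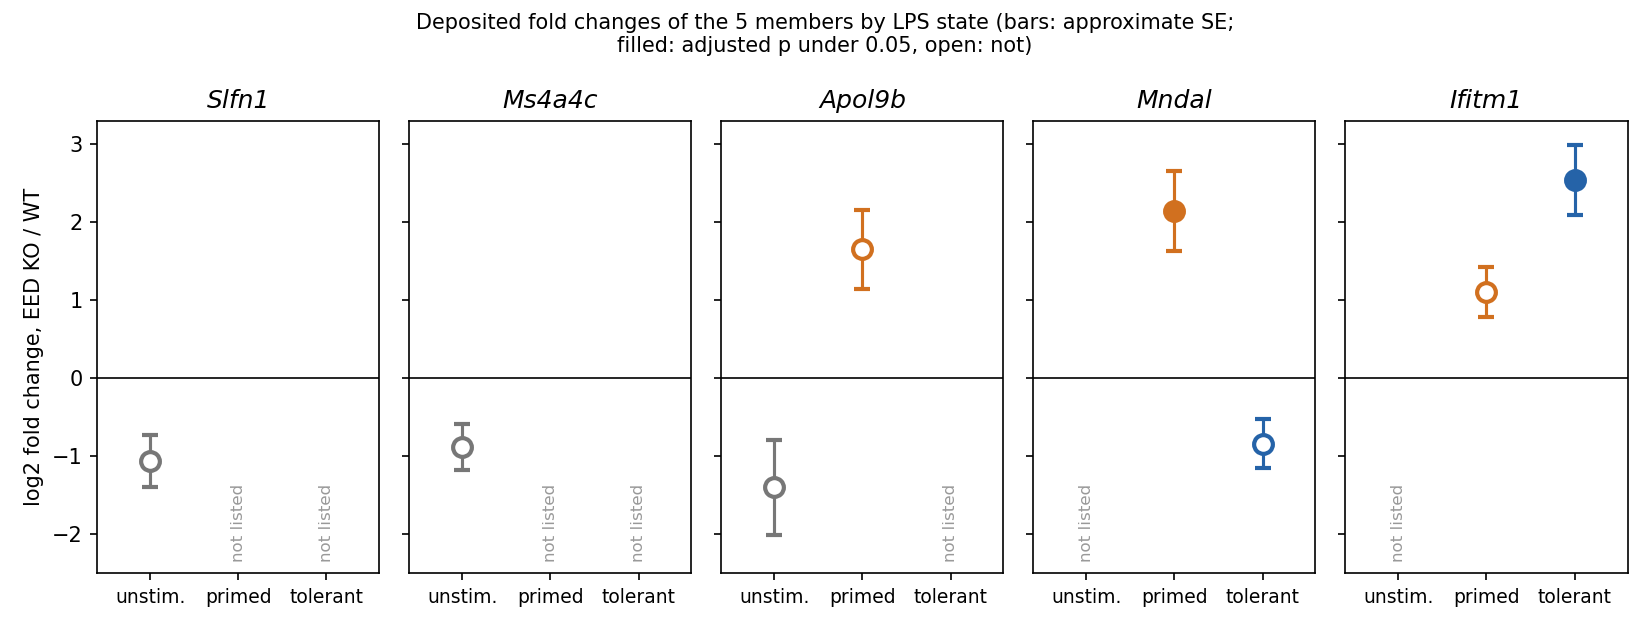
Log2 fold change of EED KO against WT (y axis) for each of the 5 genes (panels) in the unstimulated, primed and tolerant states (x axis), from the authors' deposited table; bars are approximate standard errors, filled points have an adjusted p under 0.05, and open points do not. Apol9b lies below 0 in unstimulated and above 0 in primed cells, Mndal above 0 in primed and below 0 in tolerant cells, and Ifitm1 above 0 in both LPS states.

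Mndal encodes a nuclear protein of the Ifi200 (PYHIN) family, whose members bind DNA and include sensors of foreign DNA. The gene (ENSMUSG00000090272) lies on the minus strand at chr1:173849126-173942491 in GENCODE vM21 on GRCm38. In LPS primed cells Mndal rose, with a log2 fold change of 2.14 (4.41-fold, approximate SE 0.51, adjusted p = 0.0129) per the authors' deposited table. It ranked 26 of 301 higher genes by size and 78 by p. In LPS tolerant cells the authors' deposited table lists it on the other side, at -0.84 (approximate SE 0.31, unadjusted p = 0.00774, adjusted p = 0.698), and it had no row in unstimulated cells. The tolerant value minus the primed value was -2.98 with an approximate SE of 0.60, and this difference was not tested. Both rows had to pass the listing limits, so rows of opposite sign could not give a small difference. The approximate SE takes no account of that selection. Whether the 2 rows cover the same part of the gene is not known. The annotated span of Mndal overlaps the family members Ifi211 and Ifi203 on the same strand. Of its 3973 distinct stretches of 150 bases, the read length, 64 (1.61%) also occur in transcripts of Ifi211, Ifi205 or Ifi203. How reads over the shared span were assigned is not stated in the sources used here.

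Apol9b belongs to the apolipoprotein L family, and in mice Apol9a and Apol9b are interferon-induced genes with antiviral activity. It lies on the plus strand at chr15:77729039-77736382 (ENSMUSG00000068246, GENCODE vM21 on GRCm38). In unstimulated cells the authors' deposited table gives a log2 fold change of -1.40 (approximate SE 0.61, unadjusted p = 0.022, adjusted p = 1). In LPS primed cells the same gene stood at 1.65 (approximate SE 0.51, unadjusted p = 0.00119, adjusted p = 0.19) per the authors' deposited table, and it had no row in tolerant cells. Neither value passed the adjusted threshold, so neither direction is firm. The primed value minus the unstimulated value was 3.05 with an approximate SE of 0.80, which was not tested. As for Mndal, the listing limits alone keep such a difference from being small. Here too the 2 rows may cover different parts of the gene. Apol9a, a near-copy on the same chromosome, was listed in LPS primed cells alone, at 1.39 (adjusted p = 1) per the authors' deposited table. Of the 1819 distinct 150-base stretches of Apol9b transcripts, 409 (22.5%) also occur in Apol9a, and the promoter windows of the pair were identical over all 278 aligned bases. Values for Apol9a and Apol9b are therefore uncertain to the extent that the authors' counting split or dropped shared reads.

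Ifitm1 encodes a small membrane protein of a family that blocks the entry of enveloped viruses. It lies at chr7:140967221-140969825 on the plus strand (ENSMUSG00000025491, GENCODE vM21 on GRCm38), and none of its 956 distinct 150-base stretches occurs in another gene's transcripts. In LPS tolerant cells Ifitm1 rose, by 2.54 on the log2 scale (5.82-fold, approximate SE 0.45, adjusted p = 2.97e-05) per the authors' deposited table, which placed it at rank 14 of 344 higher genes by size. In LPS primed cells the authors' deposited table gives 1.11 (2.15-fold, approximate SE 0.32, unadjusted p = 0.000606, adjusted p = 0.133). The tolerant value minus the primed value was 1.44 with an approximate SE of 0.56, which was not tested. Ifitm1 was the only one of the 5 genes listed in the same direction in 2 states, and it had no row in unstimulated cells.

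Slfn1 and Ms4a4c were listed in unstimulated cells alone. Slfn1, of the Schlafen family, is known in mice as a restraint on T cell growth, and lies at chr11:83116849-83122670 on the plus strand (ENSMUSG00000078763, GENCODE vM21 on GRCm38). Its log2 fold change was -1.06 (2.08-fold lower, approximate SE 0.34, unadjusted p = 0.0018, adjusted p = 0.731) per the authors' deposited table. Ms4a4c encodes a protein of the MS4A family that spans the membrane several times, and lies at chr19:11404770-11427246 on the plus strand (ENSMUSG00000024675, GENCODE vM21 on GRCm38). For Ms4a4c the authors' deposited table gives -0.88 (1.84-fold lower, approximate SE 0.30, unadjusted p = 0.00319, adjusted p = 1). Neither gene shares a 150-base stretch with another gene's transcripts. The median of the 3 unstimulated values, -1.06, compares with -0.997 over all 53 lower genes in that state.

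A change of side between states was uncommon among all listed genes. The 2 rows of a symbol may cover different parts of its gene, which could not be checked. Of 72 symbols listed in both unstimulated and LPS primed cells (31.9% of the unstimulated and 19.2% of the primed symbols), 4 had opposite directions, and Apol9b was 1 of the 3 that were lower in unstimulated and higher in primed cells. Of 111 symbols listed in both primed and tolerant cells (29.6% and 26.7%), 7 had opposite directions, and Mndal was 1 of the 4 that were higher in primed and lower in tolerant cells. Over all pairs of states, 12 of 163 symbols with rows in 2 or more states (7.36%) were listed on opposite sides. Among them were Apol9b and Mndal, 2 of the 3 with 2 rows among the 5 chosen genes. Other interferon-stimulated genes with 2 rows, such as Ccl12, are not counted in these 3. The genes were chosen from these same comparisons, so that share is printed for scale only. The states share no libraries, but the same replicate numbers recur in all 3 states, so shared animals or cultures are possible. The 2 symbols listed in both directions within a state were left out of these counts. None of the symbols listed on opposite sides had an adjusted p under 0.05 in both states of a pair.

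**Figure D3:**
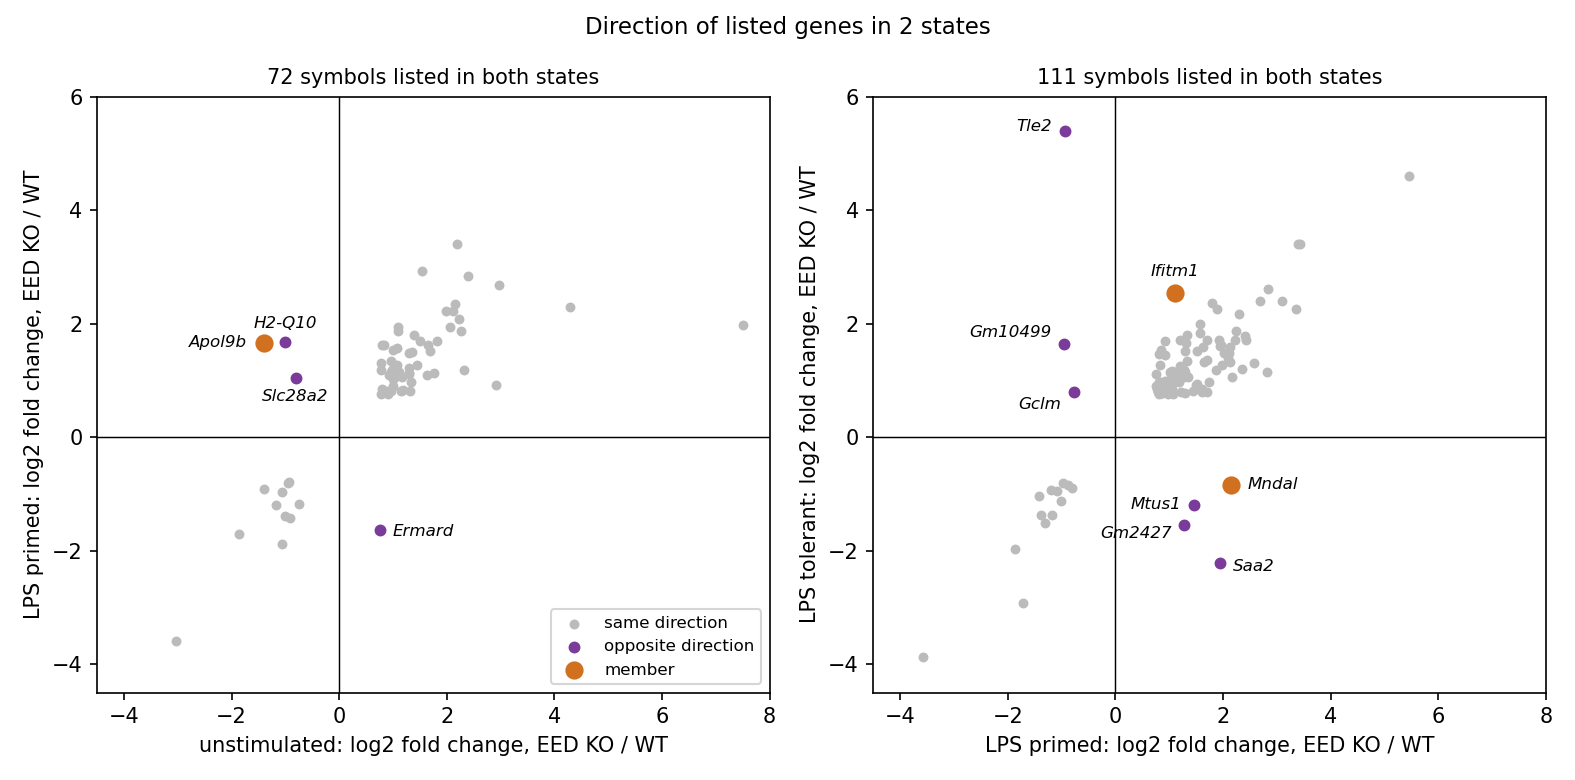
Log2 fold change of EED KO against WT for every symbol listed in 2 states, with unstimulated on the x axis and LPS primed on the y axis (left, 72 symbols) and LPS primed on the x axis and LPS tolerant on the y axis (right, 111 symbols); orange marks Apol9b, Mndal and Ifitm1, purple the other genes with opposite directions, and H2-Q1, at -9.45 and -13.12, lies outside the right frame. Most points lie in the 2 corners of equal direction, and Apol9b and Mndal lie outside them.

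Genes of the most similar pattern were sought among those listed in exactly the same states, by Euclidean distance of the log2 fold changes over the 2 states. For Apol9b the nearest of 32 were H2-Q10 (-1.01 unstimulated, 1.67 primed, distance 0.39) and Slc28a2 (-0.81 and 1.04, distance 0.85) per the authors' deposited table. H2-Q10 is a class I gene among close copies, so its reads are uncertain. For Mndal the nearest of 71 were Mtus1 (1.45 primed, -1.20 tolerant, distance 0.78) and Saa2, which encodes an acute-phase protein (1.95 and -2.21, distance 1.39), per the authors' deposited table. For Ifitm1 the nearest of 71 were Rps2, which encodes a ribosomal protein (1.57 primed, 2.00 tolerant, distance 0.72), and F11r, which encodes a junctional adhesion molecule (1.33 and 1.80, distance 0.77), per the authors' deposited table. None of these 6 genes is in the interferon lists used here. H2-Q10 and Slc28a2 were the only candidates that, like Apol9b, were lower in unstimulated and higher in primed cells. Mtus1 and Saa2 were the only candidates that, like Mndal, were higher in primed and lower in tolerant cells. For Apol9b and Mndal the search thus had no further choice among genes with the same directions.

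The 5 families hold 60 relatives of these genes, of which 9 were listed in any state. Of RefSeq protein-coding symbols, 0.996%, 1.56% and 1.76% were listed in unstimulated, primed and tolerant cells. Those shares are for single states and cannot be set directly against a count over any state. The families were chosen with earlier results of these data known, so these shares are for scale only. Of the relatives, 3 were higher and 1 lower in unstimulated cells, 6 were higher and 0 lower in primed cells, and 3 were higher and 1 lower in tolerant cells. Of all listed rows 23.3% were lower in unstimulated cells, and 79.8% and 82.1% were higher in primed and tolerant cells, so these directions are near the general split. The firmest were Tmem176a and Tmem176b, MS4A-related membrane proteins. Tmem176a rose by 1.93 in primed and 1.71 in tolerant cells (adjusted p = 1.5e-09 and 9.48e-07), and stood at 2.05 (adjusted p = 0.0848) in unstimulated cells, per the authors' deposited table. Tmem176b rose by 2.09 in primed and 1.40 in tolerant cells, and stood at 2.23 (adjusted p = 0.343) in unstimulated cells, per the authors' deposited table. Ms4a4c thus had the opposite sign from both in unstimulated cells, and also from its neighbour Ms4a4a at 1.33 (adjusted p = 1) per the authors' deposited table.

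Apol7c rose by 2.47 (adjusted p = 9.75e-07) in tolerant cells per the authors' deposited table, where Apol9b had no row. Ifitm6, which lies on the same chromosome as Ifitm1, had the other sign, at -0.997 in unstimulated and -0.976 in tolerant cells (adjusted p = 0.449 and 0.575) per the authors' deposited table. Ifi208, another Ifi200 gene, stood at 1.99 (adjusted p = 0.745) beside Mndal in primed cells per the authors' deposited table. Ms4a4b at 2.40 (adjusted p = 0.407) and Slfn9 at 1.17 (adjusted p = 0.931) were listed in primed cells alone per the authors' deposited table.

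A wider list of 89 other interferon-stimulated genes, without the Gbp, IRG and Ly6 families, had 14 listed members in LPS primed cells, all higher, where 79.8% of all listed rows were higher. Their median on the log2 scale was 1.20, against 1.09 over the 301 genes listed as higher in that state. Of the 14 only Plac8, a small cysteine-rich protein, passed, against 33.2% of all listed rows in that state, and it rose by 2.44 (adjusted p = 0.00153) per the authors' deposited table. The antiviral effectors Rsad2 (viperin), Mx1, Mx2, Oas2 and Ifi44 stood at 1.31, 1.18, 0.82, 0.84 and 1.29 per the authors' deposited table, with adjusted p from 0.436 to 1. The helicase Ddx60, the nucleotide kinase Cmpk2, and Xaf1, which encodes a pro-apoptotic protein, stood at 0.85, 1.24 and 0.98 per the authors' deposited table, and did not pass. Cd69, a lymphocyte and myeloid activation marker, and Tnfsf10, the death ligand TRAIL, stood at 1.13 (adjusted p = 0.0956) and 1.27 (adjusted p = 0.726) per the authors' deposited table. Ccl12, a monocyte chemoattractant, Phf11a and Trim30c stood at 1.73, 1.22 and 0.96 per the authors' deposited table, and did not pass. These 14 are 15.7% of the list, against 1.56% of 21896 RefSeq protein-coding symbols listed in primed cells, a background that includes genes macrophages do not express. The list was made with earlier results of these data known, so the 2 shares are printed for scale only.

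The same list was sparse in the other states. In unstimulated cells 1 of 89 was listed, Ms4a4a, which is also counted as a relative, against 0.996% of protein-coding symbols. In tolerant cells 3 of 89 (3.37%) were listed, against 1.76% of protein-coding symbols, and none passed. They were Ccl12 at 0.96, Ifi27l2a at 0.77 and Oas1c at -0.75 per the authors' deposited table. Ifi27l2b, a relative of Ifi27l2a outside the list and picked out after its value was seen, rose by 2.06 (adjusted p = 0.0479) in tolerant cells per the authors' deposited table. Of 33 symbols from the GTPase and Ly6 families that were set apart, 2, 13 and 6 were listed without stimulation, after priming and in tolerance. All were higher, where 79.8% of primed and 82.1% of tolerant listed rows were higher and 23.3% of unstimulated ones lower. Of these symbols 1, 2 and 2 rose, where 19.4%, 33.2% and 23.6% of all listed rows passed in either direction. The 13 primed symbols carry 11 distinct identifiers. Slfn1, Ms4a4c and Apol9b in unstimulated cells thus stood on the other side from every listed one of the 33 symbols. So did Mndal in tolerant cells. In unstimulated cells the listed ones were only 2 symbols, and the 33 may not cover every gene of those families.

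**Figure D4:**
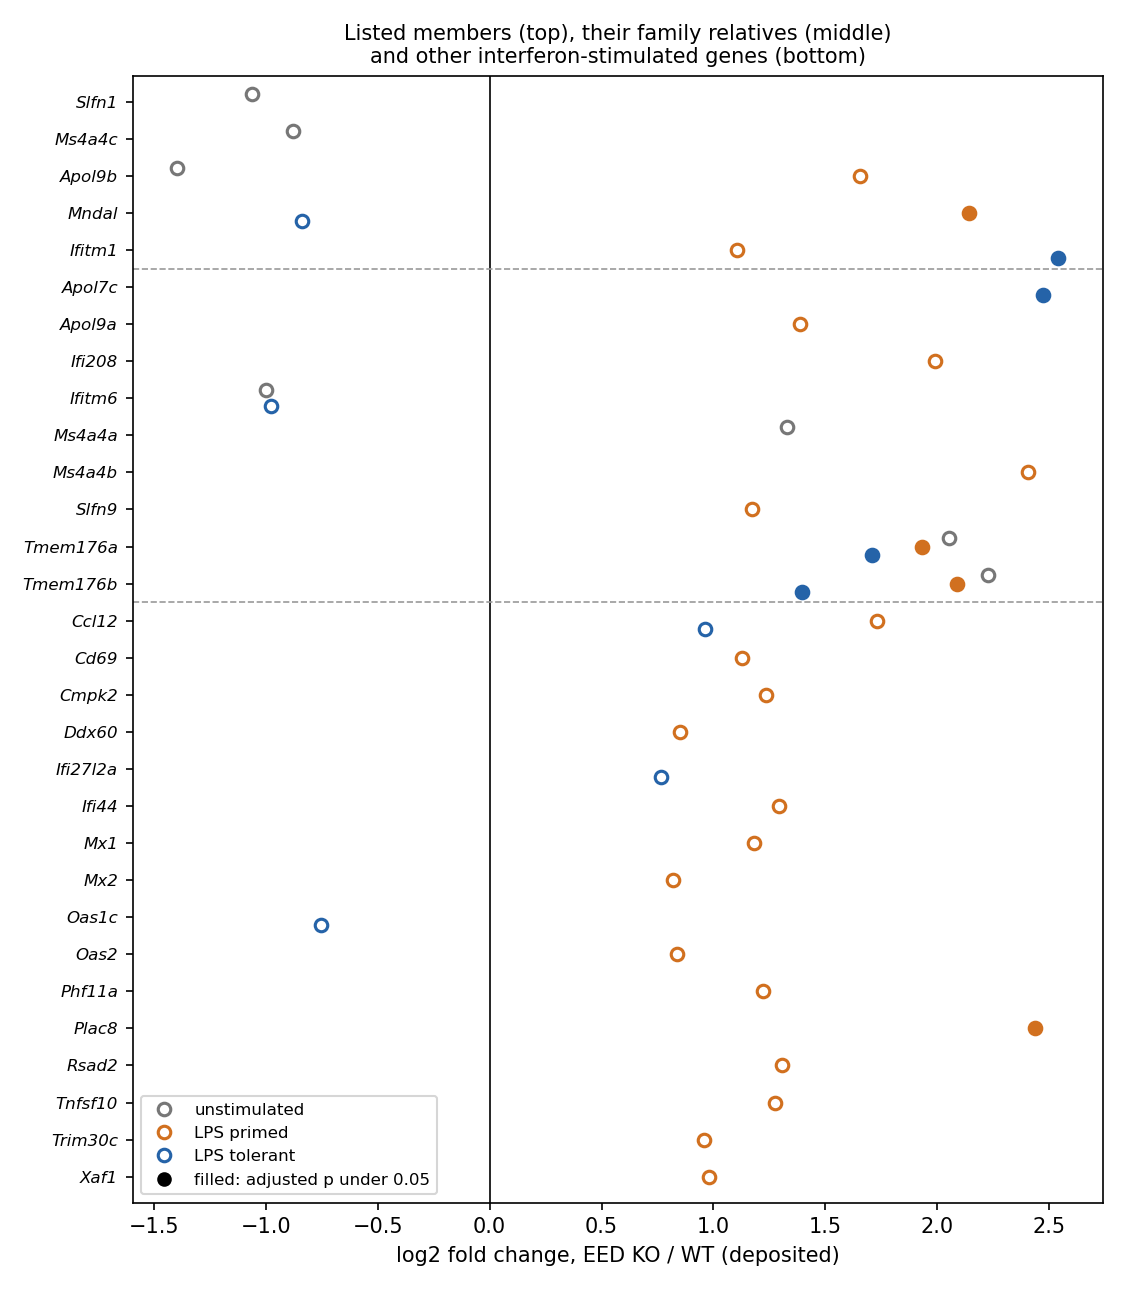
Log2 fold change of EED KO against WT (x axis) for the 5 genes (top), their listed family relatives (middle) and the other listed interferon-stimulated genes (bottom), coloured by state; filled points have an adjusted p under 0.05. Primed values all lie above 0, while values below 0 come from unstimulated and tolerant cells.

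Of 66 genes that carry the interferon signal (ligands, receptors, JAK-STAT components, interferon regulatory factors and upstream sensors), 1 (1.52%) was listed in each state, and none passed. The shares of protein-coding symbols listed were 0.996%, 1.56% and 1.76% in unstimulated, primed and tolerant cells, so the share of these genes was near that of genes in general. They were the transcription factor Irf4 at 0.95 in unstimulated cells, the kinase Jak2 at 0.81 in primed cells and the kinase Ikbke at 0.82 in tolerant cells, with adjusted p of 1, 0.637 and 1, per the authors' deposited table. None of 17 interferon genes was listed in any state, which does not show that their RNA was the same, since low genes could not be told from unmeasured ones.

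Among genes listed as higher in LPS primed cells, 26 of the 239 with a promoter window (10.9%) had the ISRE-like motif, Apol9b and Mndal included, against 3.99% of all genes with a window. The share was 9 of 237 (3.80%) for genes higher in tolerant cells, and 4 of 42 (9.52%), Apol9b included, for genes lower in unstimulated cells. Of 72 interferon-stimulated genes of the wider list with a window, 24 (33.3%) had the motif. Among those of them listed in LPS primed cells it was 3 of 10 (30%), no higher than in the whole list. These are descriptions of the sequence and say nothing of what binds there.

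**Figure D5:**
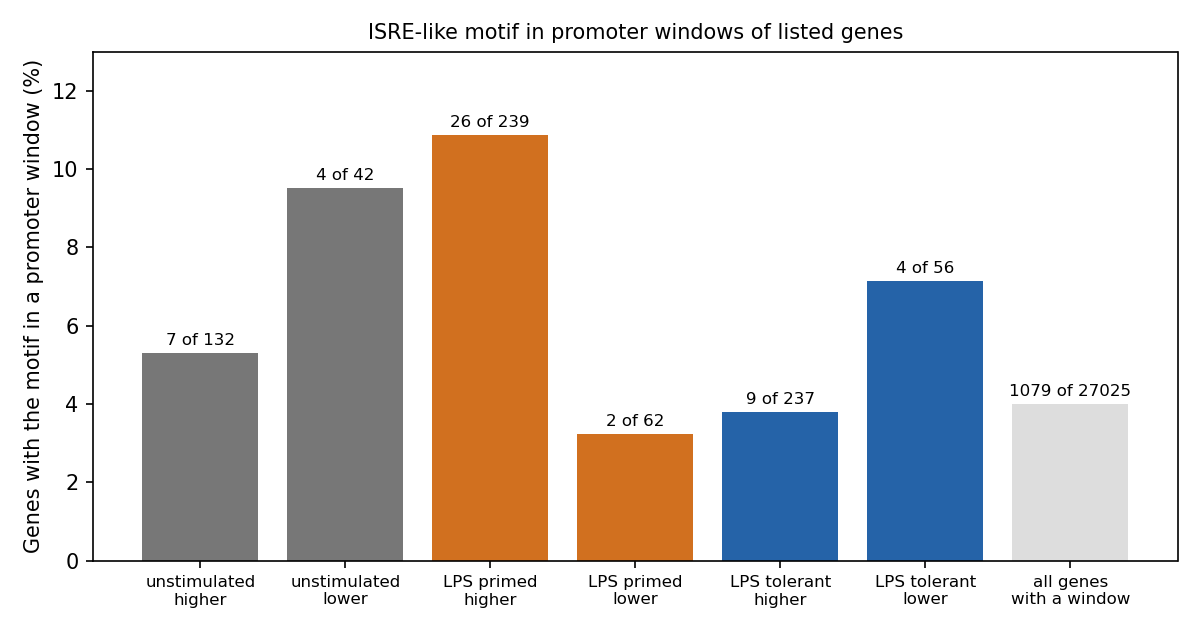
Share of genes with at least 1 match to the ISRE-like motif in a promoter window (y axis, %), for the higher and lower genes of each state and for all genes with a window; labels give the counts. The tallest bar is that of genes higher in LPS primed cells, 26 of 239.

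Several of these genes are also expressed by lymphocytes, so markers of other cells were read beside them. None of 9 NK cell and 6 plasmacytoid dendritic cell markers was listed in any state. Of 12 T cell markers only Il7r was listed, lower in all 3 states, and of 10 B cell markers only Ighm, at 1.63 (adjusted p = 0.132) in unstimulated cells, per the authors' deposited table. Of 10 dendritic cell markers Cd24a was listed in unstimulated cells (0.93, adjusted p = 0.573), and Fscn1 rose by 2.58 in primed and 1.30 in tolerant cells, per the authors' deposited table. Among 12 neutrophil markers Mmp9 rose in primed cells, and Mmp9 and Mmp8 in tolerant cells. Of 8 progenitor markers Cd34 was listed in unstimulated cells (1.84, adjusted p = 0.153), and Car2 rose by 1.82 in tolerant cells, per the authors' deposited table. Of 12 macrophage markers Lyz2 fell in all 3 states. Lyz2 is the gene that carries the Cre, so its row may not serve as a marker here. C1qa and Mrc1 in unstimulated, Mertk in primed and C1qa in tolerant cells were listed as higher and did not pass. Levels of these markers are not analysed here, their part in the results was not tested, and in bulk RNA a change in cell makeup and a change per cell cannot be told apart.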

How the data were processed

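Per the labels' protocols, stranded mRNA libraries were sequenced as paired reads of 150 bases. HISAT2, R 4.0.3, edgeR and GRCm39 are named in the submitters' processing notes, without the annotation, the counting, the filters or the kind of test. The authors deposited log2 fold changes (the base is an assumption), unadjusted p-values and adjusted p-values for listed genes, with no values per library, so depth is unknown. The ratio of adjusted to unadjusted p implies at least 413233, 189858 and 338297 tests for the unstimulated, primed and tolerant comparisons, against 55450 genes in GENCODE vM21, so rows may cover less than a whole gene.

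Rows were matched by symbol, or by Ensembl identifier for the lists, with Python 3.11.15 and pandas 2.3.3. No model was fitted. For approximate SEs, the size of each log2 fold change was divided by the normal deviate that matches its two-sided p. All 5 genes matched a RefSeq promoter window. The motif search and the pattern search were tested on simulated data. The 5 genes, the gene lists and the naming rule were chosen with earlier results of these data known. All 5 genes, their listed relatives, listed genes of the wider interferon lists and, for each gene with 2 rows, the 2 nearest in pattern are named. After the values had been seen, 2 IRG genes that were also in the set-apart families, Gm4951 and Ifi47, were taken out of the wider interferon list, which then held 89 genes in place of 91. Gm4951 was listed in primed cells at 1.28 (adjusted p = 0.522, per the authors' deposited table). At the same stage 3 names were taken out of the sensing list: Tram1, which was the wrong gene, and Tmem173 and Mb21d1, older names of genes already in it. None of the 3 had a row. The letters of the motif were set by hand from general knowledge of this element and were not derived from the data. Another motif that was searched matched in 0 of the 5 genes, and is not reported here.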

Additional observations from a re-analysis of the deposited data

How the results depend on the processing

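The count of the 5 genes past the threshold depended on the rule. Counting every listed row gave 3, 3 and 2 genes in unstimulated, primed and tolerant cells in place of 0, 1 and 1 at an adjusted p under 0.05, and an absolute log2 fold change of at least 1 gave 2 in unstimulated and 3 in primed cells. An adjusted p under 0.01 left 0 in primed cells, since Mndal stands at 0.0129. With an absolute log2 fold change of at least 1, the wider interferon list fell to 9 genes in primed and 0 in tolerant cells, against 14 and 3. A natural log base would turn member folds of 1.79 to 5.82 into 2.31 to 12.7. With Gm4951 and Ifi47 kept in that list, an alternative chosen after seeing the data, it had 15 listed genes in primed cells, and 1 and 3 in unstimulated and tolerant cells. Leaving out replicates in turn was not run, and No paired analysis was possible because the files used hold no values per library.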
